A study of Danio rerio with 6 samples.

Results

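The fatty acid binding protein (fabp) family was followed in RNA from zebrafish liver cells that overexpress lcat. Its members were taken by gene symbol from a list of 10 names, and all 10 were found among the 23745 genes of the deposited table. Their values were not part of the rule, but earlier results of these data were known when they were chosen. Fabp proteins are small cytosolic carriers that hold long-chain fatty acids, and in some members bile acids, in a barrel-shaped pocket and move them between membranes and organelles. Each tissue tends to use its own members: fabp10a is the liver member of fish and other non-mammalian vertebrates, and others are named for the intestine, ileum, heart or brain.

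The lcat OE libraries came from larvae with the genotype Tg(fabp10a:lcat-T2A-mCherry; fabp10a:eGFP), in which the fabp10a promoter drives lcat with a red reporter and, from a second transgene, a green reporter. The CTL libraries came from Tg(fabp10a:eGFP) larvae, which carry the green reporter alone. Both groups were taken at 6 days post fertilisation, and each of the 3 libraries per group was made from 2000 hepatocytes sorted by fluorescence. The gene lcat encodes lecithin-cholesterol acyltransferase, which esterifies cholesterol on lipoproteins. The study asked which transcripts change in early fatty liver caused by lcat. No group carried the red reporter without lcat, so effects of lcat, of mCherry and of the line cannot be told apart. Because both transgenes use the fabp10a promoter, every library comes from cells chosen by the activity of that promoter, and a level of fabp10a is a level among such cells. The labels do not say whether replicates came from separate clutches or sorts, so p-values cover only the variation among these libraries, which may be technical.

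Total counts were 23431234 to 24890856 in lcat OE libraries and 23336591 to 23695610 in CTL libraries. The overexpressed gene lcat had 2247, 1723 and 1118 TPM (transcript abundance scaled by length and depth) in lcat OE 1 to 3, against 103, 90.07 and 105 TPM in CTL 1 to 3. Apolipoprotein genes led both groups, with apoa2 and apoa1b first and second in every library, and all 21 hepatocyte markers were counted in every library. Of 14096 genes tested with edgeR, 2293 (16.3%) were higher and 2303 (16.3%) lower in lcat OE at an adjusted p under 0.05, together 32.6%. The share of these calls that were higher was 49.9%, but 38.8% with library totals in place of scaling factors and 30.8% with limma on log2(TPM + 1). Markers of other cells moved as well: 0 rose and 8 of 10 tested fell for eye, 0 and 7 of 16 for exocrine pancreas, 5 rose and 1 of 8 fell for macrophages, and 2 rose and 4 of 8 fell for endothelium. The number that fell for pancreas was 2 without lcat OE 1, 11 without lcat OE 2, 14 with DESeq2 and 3 with the replicate block or with no filter on low counts, no macrophage marker fell without lcat OE 1 or lcat OE 2, and the number for endothelium was 2 without CTL 2. Their part in the fabp results was not tested.

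Of the 10 fabp genes, 6 passed the filter on low counts, and 1 of these rose and 1 fell in lcat OE. The brain-type gene fabp7a fell 2.86-fold and the intestinal-type gene fabp2 rose 1.74-fold. The liver gene fabp10a, which holds over 94% of the family's TPM in every library, and the heart-type gene fabp3 did not pass the test. The 2 calls of 6 tested members stand beside 32.6% of all genes tested, and the median log2 fold change of the 6 was 0.19 beside -0.02 over all genes tested. In bulk samples such as these, fewer cells of a type and less RNA per cell cannot be told apart.

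**Figure D1:**
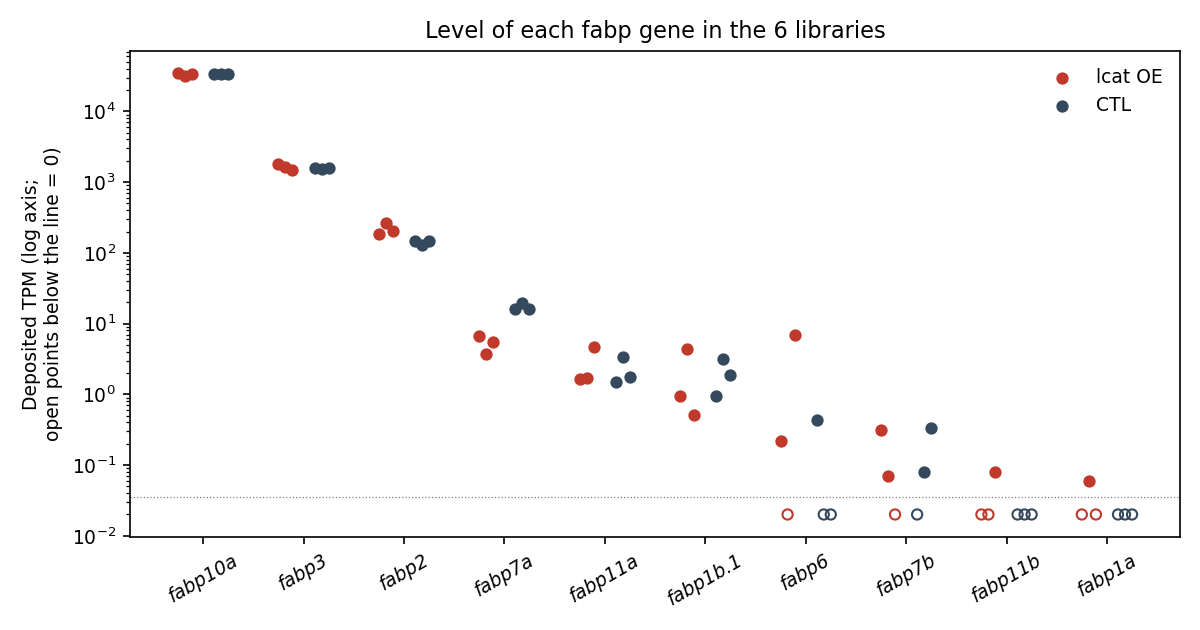
Deposited TPM of the 10 fabp genes in each library, on a log axis, with lcat OE in red and CTL in dark blue; open points below the dotted line are libraries listed at 0. The order fabp10a, fabp3, fabp2, fabp7a is the same in both groups, fabp2 is higher and fabp7a lower in all 3 lcat OE libraries, and fabp6 stands out in 1 lcat OE library at 6.84 TPM.

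The family was dominated by 1 gene. Fabp10a (NCBI gene 171481), a liver carrier of fatty acids and bile acids, had 35006, 31174 and 33821 TPM in lcat OE 1 to 3, against 34188, 33595 and 33869 TPM in CTL 1 to 3. The lcat OE values lie on both sides of the CTL values, which sit close together. The means were 33334 ± 1962 TPM in lcat OE and 33884 ± 297 TPM in CTL (SD, n = 3 each). Only apoa2 and apoa1b had more TPM than fabp10a in any of the 6 libraries, a comparison made after the values were seen.

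In counts, fabp10a had 232096, 222958 and 237019 in lcat OE 1 to 3 and 226141, 219029 and 207980 in CTL 1 to 3. In CPM, counts scaled to library size with edgeR's TMM factors, the means were 9853 ± 1103 CPM in lcat OE and 8990.3 ± 527 CPM in CTL (SD, n = 3 each). The fitted log2 fold change, 0.13 (SE 0.12, adjusted p = 0.427, edgeR), had a 95% interval that runs from a fold of 0.914 to a fold of 1.31. The sign turned on the deposited TPM, where limma gave -0.03 with either pseudocount. On log2(TPM + 0.1) the median of all genes was itself at -0.18, against -0.02 in counts, and relative to that median fabp10a was at 0.16, against 0.15 in counts and 0.07 on log2(TPM + 1).

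The level of lcat, whose transgene borrows the fabp10a promoter, was set against fabp10a within each library. Per 1000 TPM of fabp10a in the same library, lcat had 64.2, 55.3 and 33.1 TPM in lcat OE 1 to 3, against 3.02, 2.68 and 3.11 in CTL 1 to 3. The lcat ratio thus spanned a wider range among the lcat OE libraries than fabp10a itself. These counts join lcat reads from the transgene with those from the native gene, and the green and red reporters are not analysed here.

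The next most abundant member was fabp3 (NCBI gene 171478), named for heart muscle in mammals and carrying the older zebrafish name O-FABP. It had 1826, 1628 and 1466 TPM in lcat OE 1 to 3, against 1564, 1521 and 1568 TPM in CTL 1 to 3. These values overlap, since lcat OE 3 lies below all CTL libraries. In CPM they did not overlap, as for 47.7% of all genes tested: lcat OE 1 to 3 had 1155, 1079 and 1119 CPM, against 996, 898 and 931 CPM in CTL 1 to 3. The log2 fold change was 0.25 (SE 0.10) and missed the threshold (adjusted p = 0.0914, edgeR). It passed without lcat OE 3 (adjusted p = 0.0357) and with 2 libraries against 2, without CTL 1 and lcat OE 3 (0.0278), and over the 18 alternatives its adjusted p lay between 0.0278 and 0.50.

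Part of the muscle and heart markers fell in lcat OE. The 20 markers summed to 15.4 to 23.0 CPM in lcat OE libraries and 64.03 to 269 CPM in CTL libraries. Of the 15 tested, 8 (53.3%) fell and 0 rose in lcat OE, beside 16.3% of all genes tested in each direction. The parvalbumin gene pvalb1 did not pass, with 3.66, 3.83 and 3.65 TPM in lcat OE 1 to 3, against 1.88, 2.55 and 52.7 TPM in CTL 1 to 3, and without CTL 3 the list had 1 marker that rose and 10 that fell. The library with the highest sum, CTL 3, had 1568 TPM of fabp3, beside 1564 and 1521 TPM in CTL 1 and CTL 2. The part of muscle and heart RNA in the fabp3 level was not tested. The most abundant of these markers, the actin gene actc1b, had 3.08, 4.23 and 5.31 TPM in lcat OE 1 to 3, against 14.2, 17.3 and 77.4 TPM in CTL 1 to 3 (adjusted p = 0.069, edgeR). Another muscle actin gene, acta1a, fell (log2 fold change -4.30, SE 0.52, adjusted p = 0.0015, edgeR). The ventricular myosin gene vmhc was listed at 0 TPM in all 3 lcat OE libraries and at 0.07, 0.19 and 0.07 TPM in CTL 1 to 3, and also passed the test (adjusted p = 0.00208). With 0, 0.83 and 0 counts in lcat OE 1 to 3, vmhc passed the filter on low counts through CTL alone. CTL 1 to 3 had 10.82, 30 and 10.6 counts of it.

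**Figure D2:**
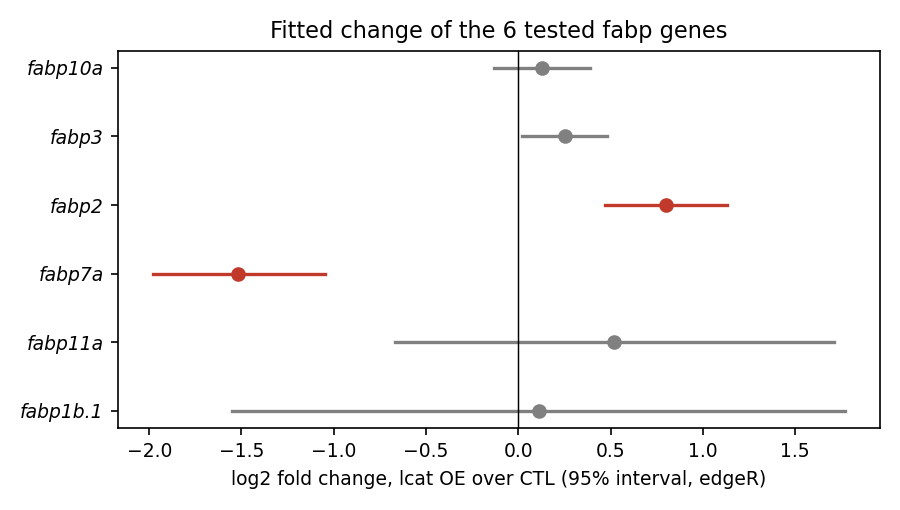
Fitted log2 fold change of the 6 fabp genes tested, lcat OE over CTL, with 95% intervals from the edgeR fit; red marks an adjusted p under 0.05. Fabp2 lies at 0.80 and fabp7a at -1.52, while the intervals of fabp11a and fabp1b.1 are wide and span 0.

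Fabp2 (NCBI gene 30708), the intestinal fatty acid binding protein that takes up dietary fatty acids in enterocytes, rose. It had 185, 261 and 202 TPM in lcat OE 1 to 3, against 145, 128 and 148 TPM in CTL 1 to 3. All 3 lcat OE libraries lie above all CTL libraries, and lcat OE 2 is the highest. The counts behind them were 2455, 3676 and 2820 in lcat OE and 1871, 1603 and 1805 in CTL. The means were 126.7 ± 23.6 CPM in lcat OE and 72.7 ± 7.38 CPM in CTL (SD, n = 3 each). The fitted log2 fold change was 0.80 (SE 0.15, adjusted p = 0.00242, edgeR) with a 95% interval of 0.47 to 1.13. Among all genes tested, 73.5% had a smaller absolute log2 fold change. Over the 18 alternatives fabp2 passed each time, with log2 fold changes of 0.61 to 0.95.

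Intestinal markers were read beside fabp2. Of 21 markers 12 were tested, of which 1 rose and 1 fell, 8.33% each beside 16.3% of all genes tested. The median log2 fold change was -0.12, and over the 18 alternatives 1 rose and 1 to 3 fell. Most of their summed level came from apoa4b.1. The sum was 2074 to 2297 CPM in lcat OE libraries and 2095 to 2496 CPM in CTL libraries, which overlap. In TPM the sums of these markers did not overlap, at 1718 to 1815 in lcat OE and 1932 to 2235 in CTL. The one that rose was apoa4b.2, an apolipoprotein A-IV gene, with 71.8, 78.6 and 67.2 TPM in lcat OE 1 to 3, against 24.6, 25.8 and 20.05 TPM in CTL 1 to 3 (log2 fold change 1.78, SE 0.13, adjusted p = 8.7e-06, edgeR). Its relative apoa4b.1, the most abundant marker on the list, had 1318, 1248 and 1176 TPM in lcat OE, against 1609, 1560 and 1399.5 TPM in CTL (adjusted p = 0.494). The adenosine deaminase gene ada fell (log2 fold change -0.45, SE 0.11, adjusted p = 0.00902).

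Several genes that define enterocytes, named after their values were seen, were near 0 in both groups. The microvillus gene vil1 was at 0.01 to 0.06 TPM in lcat OE and 0.06 to 0.17 TPM in CTL. The intestinal transcription factor gene cdx1b was at 0 to 0.04 TPM in lcat OE and 0 to 0.20 TPM in CTL, and the peptide transporter gene slc15a1b at 0 to 0.01 TPM in lcat OE and 0.02 to 0.15 TPM in CTL. Others on the list were abundant, such as the retinol carrier gene rbp2a with 221, 285 and 227 TPM in lcat OE 1 to 3, against 353, 285 and 261 TPM in CTL 1 to 3 (adjusted p = 0.563, edgeR). Epidermal markers moved in the same direction as fabp2: 15 of 20 rose and 2 fell, beside 16.3% of all genes tested in each direction. Over the 18 alternatives 11 to 16 rose and 1 or 2 fell. The 20 genes summed to 10959.8 to 16498 CPM in lcat OE and 848 to 1489 CPM in CTL, with lcat OE 2 highest for them and for fabp2. By library, lcat OE 1 to 3 had 13036, 16498 and 10959.8 CPM of these markers and 101, 147 and 132 CPM of fabp2. CTL 1 to 3 had 848, 1489 and 1100 CPM of the markers and 79.2, 64.7 and 74.2 CPM of fabp2. The part of epidermal RNA in the fabp2 result was not tested.

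Fabp7a (NCBI gene 58128), the brain fatty acid binding protein known from radial glia, fell. It had 6.71, 3.73 and 5.43 TPM in lcat OE 1 to 3, against 15.9, 19.3 and 15.9 TPM in CTL 1 to 3. The groups do not overlap, and the highest lcat OE library lies below the lowest CTL library. The counts were 92, 55 and 79 in lcat OE and 214, 253 and 204 in CTL, so counting error is larger here than for the members above. The means were 3.23 ± 0.886 CPM in lcat OE and 9.22 ± 0.921 CPM in CTL (SD, n = 3 each). The fitted change on the log2 scale was -1.52, at an adjusted p of 0.000446 (edgeR, SE 0.21), with a 95% interval of -1.98 to -1.05. In absolute size 88.5% of genes tested changed less. It passed under all 18 alternatives, with log2 fold changes of -1.70 to -1.30.

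Some brain and radial glia markers also fell. Of 17 markers 14 were tested, of which 0 rose, 9 (64.3%) fell and 5 did not pass, beside 16.3% of all genes tested in each direction. The median log2 fold change was -1.27. Without CTL 1 the number that fell was 5. Among the 9 were stmn1b (log2 fold change -1.39, SE 0.27, adjusted p = 0.0032, edgeR) and snap25b (-2.60, SE 0.54, adjusted p = 0.00437), both known from neurons. Snap25b had 3, 6 and 1 counts in lcat OE 1 to 3, against 20, 24 and 20 in CTL 1 to 3. It passed the filter on low counts through CTL alone. The most abundant marker, her6, a Notch target also made outside the brain, had 100.1, 52.7 and 95.7 TPM in lcat OE 1 to 3, against 116, 115 and 120.2 TPM in CTL 1 to 3 (adjusted p = 0.385). The 17 markers summed to 170.4 to 255 CPM in lcat OE libraries and 231 to 256 CPM in CTL libraries, which overlap. In TPM the sums did not overlap, at 98.4 to 136 in lcat OE and 161 to 174 in CTL. Most of each sum came from her6 and glula. The part of these markers in the fabp7a result was not tested. Glial genes on the list lay on both sides of fabp7a in level. Named after their values were seen, cx43, slc1a2b and mbpa fell, at levels below fabp7a. Their log2 fold changes were -1.93 (adjusted p = 0.00473), -1.71 (0.00441) and -1.15 (0.00531, edgeR). The glutamine synthetase gene glula, also made in liver, had 14.2, 39.2 and 34.2 TPM in lcat OE 1 to 3, against 30.1, 33.0 and 38.9 TPM in CTL 1 to 3 (log2 fold change 0.00, adjusted p = 0.995, edgeR). The radial glia gene her4.1, listed under its RefSeq identifier, had 2.70, 3.00 and 2.83 TPM in lcat OE 1 to 3, against 6.28, 3.71 and 5.80 TPM in CTL 1 to 3, and fell (log2 fold change -0.72, adjusted p = 0.0435, edgeR). Others, named after their values were seen, were lower still: gfap was at 0.03 to 0.13 TPM in lcat OE and 0.14 to 0.27 TPM in CTL, and s100b at 0 in all lcat OE libraries and 0.04 to 0.11 TPM in CTL.

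**Figure D3:**
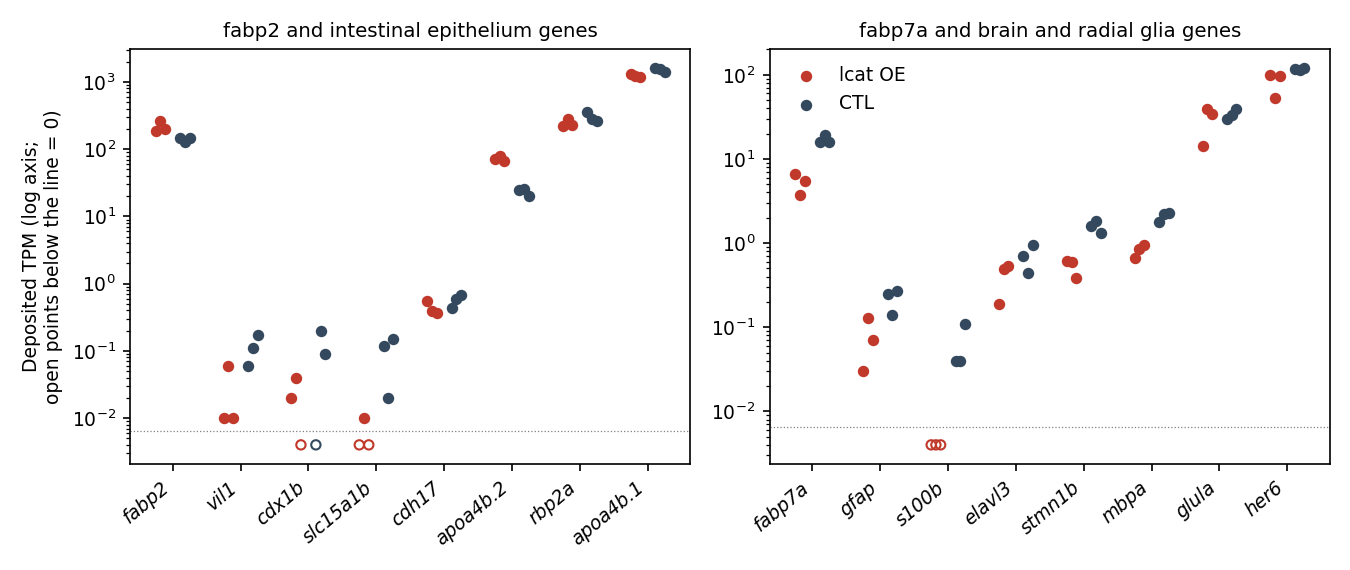
Deposited TPM, on a log axis, of fabp2 beside 7 intestinal genes and of fabp7a beside 7 brain and glia genes, in each lcat OE (red) and CTL (dark blue) library; open points are libraries listed at 0, and the genes drawn were picked after their values were seen. Fabp2 lies above vil1, cdx1b and slc15a1b and near rbp2a, and fabp7a, lower in lcat OE, lies above gfap and s100b and below her6.

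Setting each member against fabp10a within its own library does not depend on the scaling between libraries. Per 1000 TPM of fabp10a, fabp2 had 5.30, 8.38 and 5.98 TPM in lcat OE 1 to 3, against 4.24, 3.81 and 4.36 in CTL 1 to 3. Fabp7a had 0.192, 0.12 and 0.161 in lcat OE, against 0.466, 0.575 and 0.469 in CTL. For both genes the groups did not overlap and the exact permutation test over libraries, two-sided, gave p = 0.1, the smallest that 3 against 3 libraries allow. The fabp3 ratio was 52.2, 52.2 and 43.4 in lcat OE, against 45.8, 45.3 and 46.3 in CTL, with overlap (exact p = 0.4). Ratios of fabp11a (exact p = 0.6) and fabp1b.1 (exact p = 0.7) also overlapped.

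**Figure D4:**
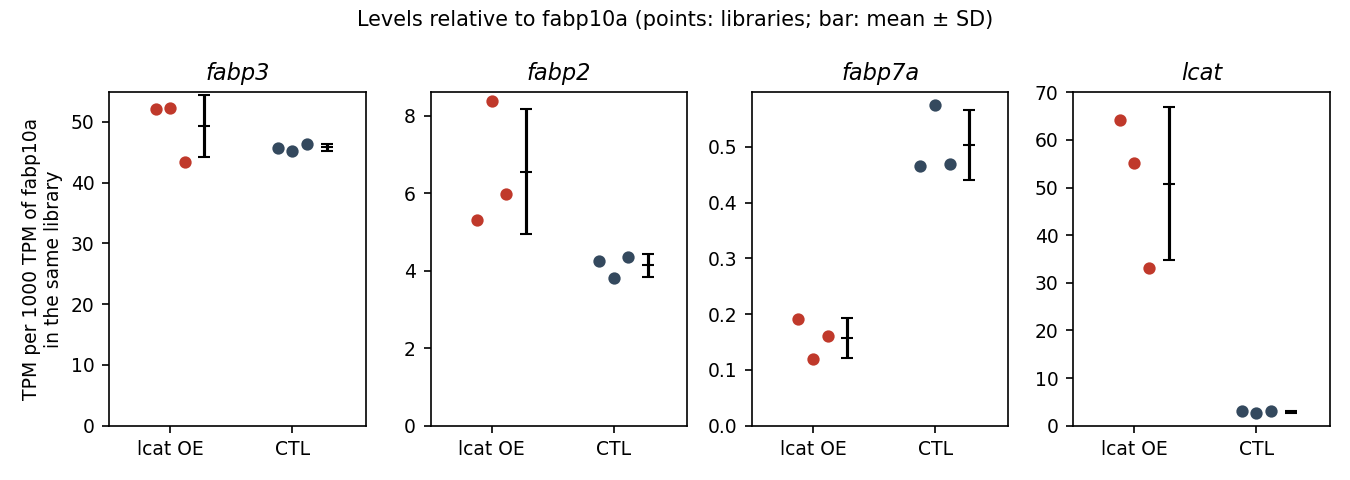
TPM of fabp3, fabp2, fabp7a and lcat per 1000 TPM of fabp10a in the same library, for 3 lcat OE (red) and 3 CTL (dark blue) libraries; black bars are the mean ± SD of each group, and each panel has its own axis from 0. The fabp2 and lcat ratios are higher, and the fabp7a ratio lower, in all 3 lcat OE libraries, while the fabp3 ratios overlap.

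Fabp11a (NCBI gene 447944), called fabp4a by RefSeq and known from fat cells, was low. It had 1.66, 1.69 and 4.70 TPM in lcat OE 1 to 3, against 1.47, 3.32 and 1.78 TPM in CTL 1 to 3. The groups overlap, with lcat OE 3 and CTL 2 each above the other libraries of their group. The log2 fold change of 0.52 (SE 0.53, adjusted p = 0.489, edgeR) rested on lcat OE 3, without which it was -0.26. Of 10 adipocyte markers 7 were tested, of which 0 rose and 4 (57.1%) fell, beside 16.3% of all genes tested in each direction. The median log2 fold change was -0.55. Over the 18 alternatives 0 rose, and the number that fell ran from 3, with DESeq2 or without CTL 1, to 7, with library totals. The lipoprotein lipase gene lpl had 211, 205 and 295 TPM in lcat OE and 356, 334 and 381 TPM in CTL (adjusted p = 0.178), while the complement factor D gene cfd fell (log2 fold change -2.10, SE 0.36, adjusted p = 0.00372). The leptin gene lepa also fell, with 0, 0 and 0.01 TPM in lcat OE 1 to 3, against 0.97, 2.83 and 1.02 TPM in CTL 1 to 3 (adjusted p = 0.00161). Its counts were 0, 0 and 1 in lcat OE and 11, 34 and 15 in CTL. Lepa thus passed the filter on low counts through CTL alone. The fat cell markers plin1 and adipoqa were too low to test in both groups: each was listed at 0 TPM in all lcat OE libraries, while CTL 1 to 3 had 0.11, 0.04 and 0 TPM of plin1 and 0.04, 0 and 0.02 TPM of adipoqa.

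Fabp1b.1 (NCBI gene 554095) and fabp1a (NCBI gene 791610) are the zebrafish relatives of the mammalian liver gene FABP1, and neither was abundant in these hepatocytes. Fabp1b.1 had 0.95, 4.39 and 0.51 TPM in lcat OE 1 to 3, against 0.95, 3.18 and 1.89 TPM in CTL 1 to 3, from counts of 4 to 35 per library. The groups overlap, and the log2 fold change of 0.11 (SE 0.74, adjusted p = 0.926, edgeR) was -1.27 without lcat OE 2. Its tandem neighbour in RefSeq, fabp1b.2, is not analysed here, nor are fabp5 and fabp10b. Fabp1a had 1 count in lcat OE 2 and 0 in the other 5 libraries, where a count of 0 allows up to 0.122 to 0.129 CPM of the library total (3 counts, for counting error only). No difference in fabp1a was detectable at this depth.

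Fabp6 (NCBI gene 415166), named in mammals for the ileal protein that carries bile acids, was counted in 3 of the 6 libraries, with most of its counts in lcat OE 3. It had 2, 0 and 66 counts in lcat OE 1 to 3, against 4, 0 and 0 counts in CTL 1 to 3. In TPM, lcat OE 3 had 6.84, which is above fabp7a in that library at 5.43 TPM. Fabp6 did not pass the filter on low counts and was not tested, and without lcat OE 3 the groups have 2 and 4 counts in all. The ileal bile acid transporter gene slc10a2 was at 0.02, 0 and 0.04 TPM in lcat OE 1 to 3 and 0.02, 0 and 0 TPM in CTL 1 to 3. The intestinal markers summed to 2297 CPM in lcat OE 3, beside 2074 and 2101 CPM in lcat OE 1 and 2. In TPM the order was the reverse, with 1718 in lcat OE 3, beside 1815 and 1796 in lcat OE 1 and 2. CTL 1, with 4 counts of fabp6, had 2496 CPM of these markers. Most of each sum came from apoa4b.1, at 1176 TPM in lcat OE 3. The enterocyte genes vil1 and slc15a1b added little, with 1, 6 and 1 and with 0, 1 and 0 counts in lcat OE 1 to 3.

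The other brain-type copy, fabp7b (NCBI gene 407736), had 4, 1 and 0 counts in lcat OE 1 to 3 and 0, 1 and 4 counts in CTL 1 to 3. Fabp11b (NCBI gene 553579), called fabp4b by RefSeq, had 1 count in lcat OE 3 and 0 in every other library. Neither was tested, and no difference was detectable at this depth. For all 10 members the 60 deposited expected counts were whole numbers (tolerance 0).

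The order of the levels in TPM was fabp10a, fabp3, fabp2 and fabp7a in both groups. In lcat OE each step from fabp10a to fabp7a was larger than the spread over libraries, with mean ratios of 20.3, 7.58 and 40.9, and fabp7a overlapped fabp11a. In CTL these ratios were 21.8, 11.1 and 8.23, and fabp7a was also clear of fabp11a, by 7.78-fold. Below that, fabp11a and fabp1b.1 overlapped in both groups, as did fabp6 with both and fabp7b with fabp11b in lcat OE and fabp6 with fabp7b in CTL. All members together took 3.70%, 3.31% and 3.55% of TPM in lcat OE 1 to 3, against 3.59%, 3.53% and 3.56% in CTL 1 to 3.

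The spread among replicates differed between the abundant members. In CPM, fabp10a had a coefficient of variation of 11.2% in lcat OE and 5.86% in CTL, and fabp3 of 3.41% and 5.27%. That of fabp2 was larger, at 18.6% in lcat OE and 10.2% in CTL. Over the 811 genes with at least 100 CPM on average, the median was 11.8% in lcat OE and 6.74% in CTL. The genes whose CPM pattern over the 6 libraries lay closest to fabp10a, among 809 others at that level, were the elongation factor gene eef1b2, the syndecan gene sdc2, the glucose-6-phosphate transporter gene slc37a4a, the kininogen gene kng1 and the mitochondrial phosphate carrier gene slc25a3b. Their root mean square distances from it were 0.029 to 0.044 on the log2 scale, where the median gene lay at 0.179.

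Other carriers of fatty acids, retinoids and sterols were read from lists in the same fit. Retinoid binding proteins of the rbp and crabp groups share the barrel fold of the fabp family. Of 10 matched genes 5 were tested, of which 0 rose and 1 fell, beside 16.3% of all genes tested in each direction. The 5 had a median log2 fold change of -0.14, and over the 18 alternatives 0 or 1 rose and 0 to 2 fell. The fall was in crabp2b, a retinoic acid carrier, with 0.03, 0.08 and 0.16 TPM in lcat OE 1 to 3, against 0.78, 2.27 and 1.01 TPM in CTL 1 to 3 (log2 fold change -3.87, SE 0.56, adjusted p = 0.000762, edgeR). Crabp2b had 2, 6 and 6 counts in lcat OE 1 to 3 and passed the filter on low counts through CTL alone. The retinol carrier rbp2b was the most abundant, at 2720 ± 245 TPM in lcat OE and 2835 ± 66.3 TPM in CTL (SD, n = 3 each, adjusted p = 0.53, edgeR), above fabp3 in both groups.

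Several acyl-CoA and sterol carriers rose. On their list, which also holds phospholipid and glycolipid transfer genes, 12 were tested, of which 5 rose and 0 fell. The share that rose was 41.7% beside 16.3% of all genes, with a median log2 fold change of 0.31 beside -0.02. Among the 5 was the phosphatidylcholine transfer gene pctp (adjusted p = 0.0453, edgeR). Without CTL 2, without CTL 3 and in each limma fit 3 rose, and 1 fell on log2(TPM + 1), on log2(TPM + 0.1) and without lcat OE 3. The acyl-CoA binding protein gene dbi had 132, 127 and 81.1 TPM in lcat OE 1 to 3, against 72.5, 68.7 and 59.4 TPM in CTL 1 to 3 (log2 fold change 0.92, SE 0.15, adjusted p = 0.00101, edgeR). The sterol carrier gene scp2b rose by 0.84 (SE 0.11, adjusted p = 0.00032), while its abundant relative scp2a had 499.6 ± 24.1 TPM in lcat OE and 479 ± 8.83 TPM in CTL (SD, n = 3 each, adjusted p = 0.353, edgeR).

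Genes of fatty acid uptake and activation, which supply and use the ligands of fabp proteins, went both ways. Of 21 tested, 4 (19.0%) rose and 7 (33.3%) fell, beside 16.3% of all genes tested in each direction. The median log2 fold change was -0.13, and without lcat OE 2 the number that fell was 4. The caveolin gene cav1 rose (log2 fold change 1.99, SE 0.20, adjusted p = 6.48e-05, edgeR), as did slc27a6, a fatty acid transport protein gene, which averaged 3.42 ± 1.46 TPM in lcat OE and 0.33 ± 0.145 TPM in CTL (SD, n = 3 each, adjusted p = 0.000122, edgeR). The abundant liver member slc27a2a, a very long chain acyl-CoA synthetase, had 188 ± 25.3 TPM in lcat OE and 241 ± 7.22 TPM in CTL (SD, n = 3 each, adjusted p = 0.434, edgeR).

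A list of nuclear receptors and coactivators fell in part. It holds sensors of fatty acids and bile acids, some known in mammals to control FABP genes, and also orphan receptors. Of 21 tested, 5 (23.8%) fell and 1 (4.76%, rxrab) rose, beside 16.3% of all genes tested in each direction. The median log2 fold change was -0.32. The number that fell was 8 with library totals, 10 on log2(TPM + 1), 3 with DESeq2 or without lcat OE 2 or CTL 2, and 2 without CTL 1 or CTL 3. In 9 of the 18 alternatives none of these genes rose. Among those were library totals, the replicate block and 5 of the 6 fits with 1 library left out. The receptor gene pparda had 5.18, 4.25 and 5.11 TPM in lcat OE 1 to 3, against 11.3, 9.59 and 9.16 TPM in CTL 1 to 3 (log2 fold change -0.86, SE 0.15, adjusted p = 0.00185, edgeR), and hnf4g fell by 0.64 (SE 0.14, adjusted p = 0.00666). The most abundant, hnf4a, a main regulator of hepatocyte identity, had 13.4 ± 2.66 TPM in lcat OE and 19.3 ± 2.3 TPM in CTL (SD, n = 3 each) and missed the threshold (adjusted p = 0.054, edgeR). Liver carrier and marker genes were mixed: of 21 hepatocyte markers 3 rose and 3 fell, 14.3% each beside 16.3% of all genes tested. Among those that rose were apoa2 at 0.41 and the transferrin gene tfa at 0.67, as log2 fold changes. The hepcidin gene hamp, at -2.60, was among those that fell. The numbers that rose and fell were 6 and 3 without lcat OE 1 and 5 and 5 without lcat OE 3. They were 7 and 6 with library totals, and 3 and 8 on log2(TPM + 1).

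**Figure D5:**
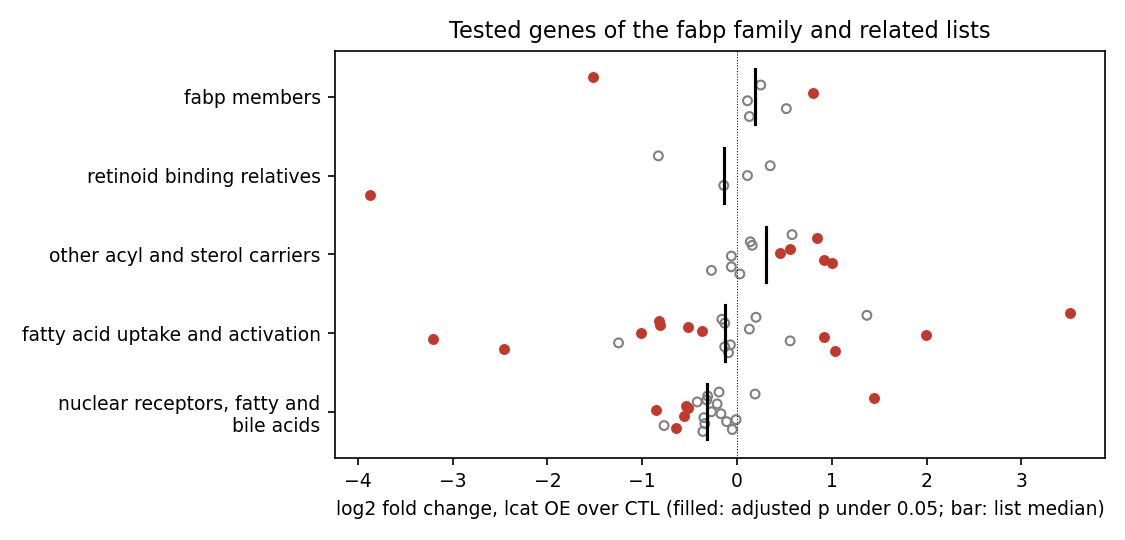
Log2 fold change, lcat OE over CTL, of every tested gene in the fabp family and 4 related lists; filled red points have an adjusted p under 0.05 (edgeR), open grey points do not, and black bars are list medians. Filled points on the list of acyl, sterol and other lipid carriers all lie above 0. Those of the nuclear receptors and coactivators lie below 0 but for 1.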

How the data were processed

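RNA of sorted hepatocytes was sequenced in 6 libraries, grouped by title. The build GRCz11 and the tools RSEM 1.3.1, HISAT, DESeq2 1.4.5 and Bowtie2 2.3.4.3 stand in the submitters' processing notes, with no roles. The authors deposited expected counts, TPM and FPKM per library in 1 table. Its 6 further per-library columns and 8 group averages were not used. The annotation and filters were not given in the sources used.

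The main test was edgeR's robust quasi-likelihood test (version 4.0.16, R 4.3.3) on the rounded counts after filterByExpr and TMM scaling, two-sided, with no covariate, with Benjamini-Hochberg adjustment over all genes tested and a threshold of 0.05. SE is the absolute log2 fold change over the square root of F. The filter also keeps genes whose counts are high enough in the CTL libraries alone. Vmhc, snap25b, lepa and crabp2b passed it that way, and such genes count in the shares of the lists. The fit was checked on simulated data with an assumed spread among replicates. There it recovered 4.7% of 64 1.5-fold, 50.8% of 63 2-fold and 85.5% of 62 4-fold changes among 14097 genes, with 6 false calls among 94. Far fewer genes were changed there than were called in these data, so these shares do not give the power of this comparison. The floor for a count of 0 covers counting error only, since PCR reads carry no molecular identifiers. Members and lists were chosen with earlier results of these data known. Named are all members, from each related or tissue list the most abundant gene and the 2 called genes with the smallest p, and the 5 genes closest to fabp10a in log2(CPM + 0.5); others were named after their values were seen. Alternatives were other scalings, filters and units, offsets for implied length, DESeq2 1.42.0, limma 3.58.1, a replicate block and left-out libraries. RefSeq names come from assembly GRCz12tu, whose coordinates were not used. The labels state no strand-specific step, and replicates differed by more than sampling noise in each pair (chi-square of 10.5 to 33.3 per degree of freedom).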

Additional observations from a re-analysis of the deposited data

How the results depend on the processing

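The calls of fabp2 and fabp7a kept their direction and their side of the threshold under all 18 alternatives, and the number of fabp genes called was 2 or 3, the third being fabp3. The number of all genes called was 4596, 4376 with DESeq2, 2704 with at least 5 CPM in 3 libraries (6580 genes tested), 4192 with the replicate block and 3517 to 4694 with 1 library left out. Directions that turned belonged to genes that did not pass in any setting. Fabp10a was at -0.03 on log2(TPM + 1) and on log2(TPM + 0.1). Fabp1b.1 was at -0.19 on log2(TPM + 1), -0.42 on log2(TPM + 0.1), -0.15 on log2(FPKM + 1), -0.14 with the replicate block, -1.27 without lcat OE 2 and -0.20 without CTL 1, and with 1 library left out it lay between -1.27 and 0.60. Fabp11a was at -0.46 with 2 libraries against 2, and with 1 library left out it lay between -0.26 and 0.92. The replicate numbers were not taken as pairs: same-numbered libraries had deviations from their group means that correlated at -0.05, -0.03 and 0.02 over genes, and the block changed no call of a fabp gene. Depth limits the members with few counts, and fabp1b.1 and fabp11a could not be fitted with at least 5 CPM in 3 libraries.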

Other observations

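The length that the deposited counts and FPKM imply for a gene was compared between libraries for 5 genes, and the difference was similar in bases for all 5. The difference between the highest and the lowest library was 20.1 bases for fabp10a, 22.8 for fabp2, 21.2 for fabp3, 21.0 for fabp7a and 21.1 for lcat. For fabp10a, with the shortest implied length (224 to 245 bases), this is 9.0% of the lowest value, beside 4.0% for fabp3 and 1.7% for lcat (1216 to 1237 bases). In lcat OE 1 to 3 the implied length of fabp10a was 230, 231 and 228 bases, against 239, 245 and 224 bases in CTL 1 to 3. The 3 CTL values of fabp10a had a coefficient of variation of 0.876% in TPM and 5.86% in CPM.

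The pattern of fabp6 was rare in the table. Only 4 of 23745 genes had at least 50 counts in 1 library and at most 4 in each of the other 5, limits set after the fabp6 counts were seen. They were fabp6 in lcat OE 3 (66 counts), the growth hormone gene gh1 in CTL 1 (109 counts), and pvalb9 (110 counts) and slc22a6l (67 counts) in CTL 2.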
